A study of Mus musculus with 71 samples.

Results

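The Pax genes encode transcription factors that share a paired DNA-binding domain, and 8 of them were examined here in mouse synovial sarcoma (SyS): Pax1, Pax2, Pax3, Pax5, Pax6, Pax7, Pax8 and Pax9. They belong to the Pax gene family, of which Pax4 was left out, and they were chosen with earlier results of these data known. They are 8 of the 55450 genes with a transcription start site (TSS) in GENCODE vM21. The data are the chromatin loops with an anchor within 2 kb of a TSS of any of these 8 genes. The loops came from H3K27ac HiChIP of 2 SyS tumors, out of 71 samples in the series. Both tumors were of the hSS2 genotype, which expresses the human SS18::SSX2 fusion, and were started by injecting TATCre protein into the hindlimb on day 8 of life. There was no control tissue, so every value describes hSS2 tumors and no comparison with fusion-free cells can be made. HiChIP ligates DNA ends that lie near each other in the nucleus and then captures chromatin with an antibody, here against H3K27ac, a histone mark of active promoters and enhancers. A loop is a pair of such captured regions, called anchors, and its tags are the read pairs that join them.

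Pax proteins act early in development, when they set up the identity of tissues and keep progenitor cells from differentiating too soon. The family falls into subgroups by protein architecture. Pax1 and Pax9 lack a homeodomain and work in the sclerotome, the source of vertebrae, and in the pharyngeal pouches. Pax2, Pax5 and Pax8 keep a partial homeodomain and act in kidney, midbrain, thyroid and B cells, while Pax3 and Pax7 carry a full homeodomain and mark muscle progenitors and the neural crest. Pax6, which also carries a full homeodomain, is the regulator of eye and forebrain development, and the remaining gene of the family, Pax4, acts in the endocrine pancreas.

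The merged list held 24244 loops with 41574 tags, and 78.0% of the loops had a single tag. It consisted of 2 parts, each sorted by position, with 28657 and 12917 tags. Neither part carries a tumor name, so no value per tumor and no spread between tumors can be given, and no test was made. Intervals are exact Poisson 95% intervals for tags and Wilson 95% intervals for shares, both of which cover counting error only. That of the median distance between anchor midpoints is a 95% interval taken from the ranked distances. It treats loops as independent, though several share an anchor. Reads without molecular identifiers are not independent molecules. The list holds no expression values, so the tumors could not be checked here against SyS markers or the fusion transcript.

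Loops reached the promoters of 3 of the 8 Pax genes, Pax2, Pax3 and Pax6 (37.5%, interval 13.7 to 69.4%). The background was 46.2% of 21755 protein-coding genes with at least 1 loop, and 23.9% of all genes, so the share of Pax genes lay within counting error of the protein-coding background. The looped members came from 3 different subgroups, and in each subgroup with several members at least 1 member had no loop. Pax6 had the largest loop score, which is the sum of the tags of a gene's loops, at 11 tags in 7 loops (interval 5.49 to 19.7). Pax2 followed with 7 tags in 6 loops (2.81 to 14.4), and Pax3 had 3 tags in 2 loops (0.619 to 8.77). These 3 intervals overlapped between neighbours in the order, and the order turned with the setting. Pax2 had 12 tags and Pax6 11 with a promoter window of 5 kb, Pax2 had 5 and Pax6 none in the first part of the list, and all 3 genes had 2 at an FDR under 0.01. Pax1, Pax5, Pax7, Pax8 and Pax9 had no loop, which as a plain count allows up to 3 tags each as a one-sided 95% bound. The list holds only called loops, and none of these genes had an anchor within 2 kb of a TSS. The bound therefore does not cover tags that were not called. The interval of Pax6 lay wholly above 3 tags, while those of Pax2 and Pax3 reached below it, which is a description only. Pax4 also had no loop.

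**Figure D1:**
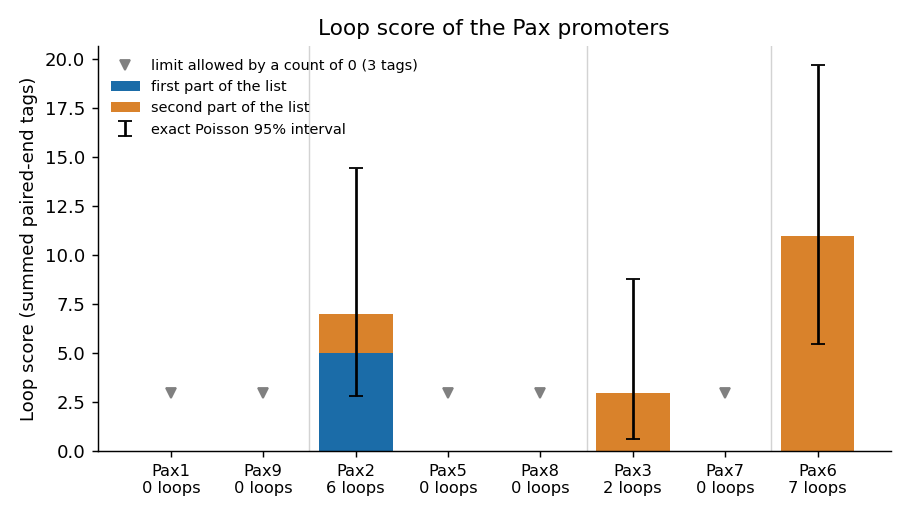
Loop score, in summed paired-end tags, of the 8 Pax promoters, ordered by subgroup with grey lines between subgroups. Bars are colored by the part of the merged list, black lines are exact Poisson 95% intervals and triangles mark the 3 tags that a count of 0 allows. The list holds only called loops, so the triangles do not cover tags that were not called. Pax6 and Pax3 have tags in the second part alone, while Pax2 has 5 tags in the first part and 2 in the second.

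Among the 10050 protein-coding genes with a loop the median loop score was 4 tags (quartiles 2 and 9). Against all 13234 genes with a loop, Pax6 stood at percentile 79.7, Pax2 at 68.6 and Pax3 at 41.8. The Pax promoters together had 15 loops and 21 tags, a mean of 1.40 tags per loop against 1.71 over the list. Of the 15 loops, 11 had a single tag (73.3%, interval 48.0 to 89.1%), and the loop with the most tags had 4. The authors' FDR ran from 0.000429 to 0.0421, and 3 of the 15 loops were under 0.01, against 15.2% of all loops. The median distance between anchor midpoints was 407.5 kb (interval 326.8 to 853.1 kb), with a range of 8.47 to 1573 kb, and the median over the list was 500.3 kb.

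Most tags of the Pax loops were in the second part of the list, and most of these came from Pax6. The second part held 16 of the 21 tags (76.2%), against 31.1% of the tags of the whole list and 29.5% of the tags at protein-coding promoters. The difference was smaller in numbers of loops. The second part held 11 of the 15 Pax loops (73.3%) and 8 of their 11 single-tag loops (72.7%), against 43.6% of all loops and 49.8% of all single-tag loops. All 7 loops of Pax6, with 11 tags, and both loops of Pax3 were in the second part. No interval was made for these shares, and loops that share an anchor, as several of Pax6 do, are not independent. Pax2 had 4 loops with 5 tags in the first part and 2 loops with 2 tags in the second. It was the only member with loops in both parts, as 24.5% of protein-coding genes had. Since the parts are not tied to tumors, whether these contacts were present in a single tumor or in both cannot be told apart.

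The sequences below are reference bases from promoters of members with and without loops. They show the 250 bases before a TSS of Pax2 and Pax6, which had the largest loop scores, and of Pax8, which had no loop and the longest distance to an anchor. Each is written 5′ to 3′ on the strand of the gene (RefSeq promoters, GRCm38.p6), and capitals mark CG dinucleotides.
Pax2, chr19:44755502-44755751, plus strand: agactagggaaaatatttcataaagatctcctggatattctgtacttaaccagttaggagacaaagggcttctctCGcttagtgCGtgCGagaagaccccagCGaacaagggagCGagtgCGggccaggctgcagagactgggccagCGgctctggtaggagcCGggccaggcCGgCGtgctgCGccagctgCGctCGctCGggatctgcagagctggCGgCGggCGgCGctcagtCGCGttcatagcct
Pax6, chr2:105668646-105668895, plus strand: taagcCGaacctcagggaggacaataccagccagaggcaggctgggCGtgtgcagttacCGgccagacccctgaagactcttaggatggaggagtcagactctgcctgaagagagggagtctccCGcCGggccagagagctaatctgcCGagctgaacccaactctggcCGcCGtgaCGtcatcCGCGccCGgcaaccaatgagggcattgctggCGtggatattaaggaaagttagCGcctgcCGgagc
Pax8, chr2:24475600-24475849, minus strand: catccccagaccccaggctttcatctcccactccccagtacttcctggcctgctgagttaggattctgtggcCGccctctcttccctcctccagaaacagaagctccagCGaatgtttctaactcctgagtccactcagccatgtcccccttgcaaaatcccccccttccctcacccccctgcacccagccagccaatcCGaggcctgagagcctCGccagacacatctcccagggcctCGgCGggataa
The Pax2 stretch held 20 CG dinucleotides, the Pax6 stretch 15 and the Pax8 stretch 6. The stretches before the other RefSeq TSSs of Pax2, not shown, held 5 and 25, and that before the other Pax6 TSS held 15. The Pax2 bases shown lay inside the promoter anchor of its loops, while the Pax6 bases shown ended just before the first anchor of that gene.

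Pax6 spans chr2:105668900-105697364 on the plus strand (mm10, as are all positions of the loops). It has 24 annotated TSSs, and 4 separate anchors lay within 2 kb of at least 1 of them. The first anchor, chr2:105668962-105670519, lay 0.027 kb from a Pax6 TSS and also reached the TSS of Pax6os1, the antisense RNA that leaves the same region. It carried the loop with the most tags of the family, 4 tags (FDR 0.0263) over 8.47 kb to chr2:105660480-105662053, at the TSS of Paupar, a long noncoding RNA upstream of Pax6 and on the opposite strand. That anchor had no other loop in the list. The first anchor also gave 1 tag to a region 853.1 kb upstream at Qser1 and the pseudogene Gm13886, a contact that passed over the promoter of Rcn1, the next protein-coding gene on that side.

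The remaining 5 Pax6 loops all ran downstream, across Elp4, the next protein-coding gene, 3.66 kb beyond the end of Pax6. Neither Elp4 nor Rcn1 had a loop of its own. The anchor at chr2:105673657-105675180 gave 1 tag to the noncoding RNA Gm29053, 368.4 kb away. The anchor at chr2:105675746-105677381 gave 1 tag to Dnajc24 and Dcdc5, 326.8 kb away, and 2 tags, with the smallest FDR of the family (0.000429), to chr2:106083402-106084744, 407.5 kb away. That region lies in an intron of Dcdc5, which is annotated as a pseudogene, and 42.9 kb from the nearest TSS. It was reached again with 1 tag over 396.2 kb from the anchor inside Pax6 at chr2:105686522-105689270. Its only loops in the list were these 2, with 3 tags, and both ended at Pax6. The inner anchor gave 1 further tag over 1020 kb to an intron of Mpped2. That inner anchor lay 1.20 kb from the closest GENCODE TSS, 8.13 kb from that of a protein-coding transcript and 4.06 kb from a RefSeq TSS. It was therefore lost with a window of 1 kb and with either of these TSS sets, each of which gave Pax6 9 tags in place of 11.

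Pax2 spans chr19:44756045-44837871 on the plus strand, and its loops left from chr19:44755099-44757705 in the first part of the list and from chr19:44755099-44758170 in the second. The loop with the most tags had 2 (FDR 0.00162) and ran 507.9 kb upstream to chr19:44247282-44249793, at the antisense gene AC125101.1. A single tag each joined Pax2 to Scd2, a fatty acid desaturase gene 463.8 kb upstream, and to the noncoding AC123853.1, 440.5 kb upstream. Downstream, 1 tag each went to the shared promoter region of Sfxn3 and Pdzd7 at 291.3 kb, to an intron of Fbxw4 at 867.0 kb and to the cluster of Fbxl15, Cuedc2 and Psd at 1573 kb. The last is the longest contact of the family. All 3 upstream loops were in the first part of the list.

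Most loops near Pax2 did not touch its promoter window. A further 17 loops with 20 tags had an anchor inside the gene or within 50 kb of it, 16 of them with a single tag and 14 of them in the second part. Their anchors lay 28.3, 13.4 and 4.64 kb upstream of the GENCODE TSSs and, inside a Pax2 intron, 10.1 kb from the closest TSS. A loop of 4 tags joined the anchors at 28.3 and 13.4 kb, the latter at the noncoding gene AC138457.1. Partners of these anchors included Hif1an, which encodes an inhibitor of hypoxia signaling and flanks Pax2 upstream, Slf2, which flanks it downstream, and Lbx1, a homeobox gene of migrating muscle precursors. RefSeq places a further Pax2 TSS 2.74 kb from the anchor at 4.64 kb. With a promoter window of 5 kb that anchor counted for Pax2, and its loop score rose from 7 to 12 tags.

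Pax3 spans chr1:78101267-78197134 on the minus strand, with a promoter anchor at chr1:78195705-78197433. It had 2 loops, and both ran downstream beyond the end of the gene. The first had 2 tags (FDR 0.00127) and reached chr1:78008347-78010204 at 187.3 kb, an intergenic region 36 kb from the nearest TSS. The second had 1 tag and reached chr1:77824067-77825529 at 371.8 kb, which lies 72.9 kb from the nearest TSS. No TSS of another protein-coding gene lay between the promoter and either anchor, and neither distal anchor had another loop in the list. A different anchor, 18.9 kb upstream of the TSS, gave 1 tag each to Epha4, the flanking ephrin receptor gene, and to Acsl3 with Utp14b. Both of these loops were in the first part of the list, in which the Pax3 promoter itself had no loop. Sgpp2, which flanks Pax3 upstream, had no loop.

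**Figure D2:**
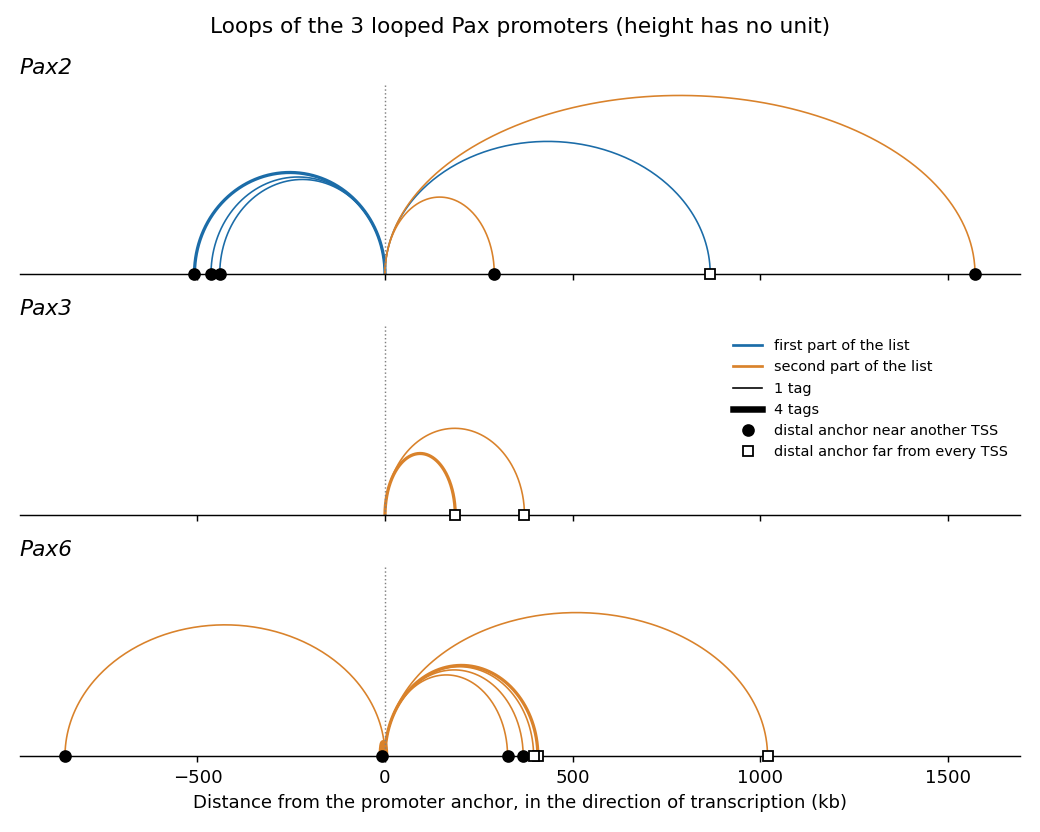
Loops of Pax2, Pax3 and Pax6 by distance in kb from their own promoter anchor, with the direction of transcription to the right. Line width gives the tags, color the part of the list, filled circles distal anchors within 2 kb of another TSS and open squares those farther away. Both Pax3 loops and 5 of 7 Pax6 loops run downstream, and a pair of Pax6 arcs near 400 kb end at the same distal anchor from different promoter anchors.

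The distal anchors of the 3 genes differed in what they held. Of 14 distinct distal anchors, 9 reached a TSS of a different gene, at most 2 kb away (64.3%, interval 38.8 to 83.7%), and 5 of these were near a protein-coding TSS. The share over all genes with a loop was 78.7% of 15428 distal anchors, which lay inside the interval of the Pax genes. Both anchors of Pax3 were far from any TSS, as were 2 of Pax6 and 1 of Pax2. Without the Pax loops themselves, the genes at the distal anchors of Pax2 had loop scores from 4 tags at AC123853.1 to 34 at Scd2, with 27 at AC125101.1, 26 at Cuedc2, 20 at Fbxl15 and Psd and 6 at Sfxn3 and Pdzd7. Of the genes at the distal anchors of Pax6, Dnajc24 and Dcdc5 had 2 tags each without the Pax loops, and Paupar, Qser1, Gm13886 and Gm29053 had no loop other than that with Pax6.

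The distal anchors also differed in how many loops they took part in. A distal anchor region whose loops in the list all ended at the same gene made up 7 of the 14 gene and region pairs of the Pax genes (50.0%, interval 26.8 to 73.2%), against 10.1% of 46131 pairs of protein-coding genes with a loop. They were both regions of Pax3 (2 of 2), 4 of 6 of Pax6 and 1 of 6 of Pax2. A region with 1 loop in the list meets this definition by construction. Of these 7 regions only that in the Dcdc5 intron had more, with 2 loops, so the share largely restates that the regions had few loops. A distal region of a Pax gene took part in a median of 2.5 loops, against 6 for protein-coding genes. Pax3 and Pax6 also had few loops within 500 kb, 5 and 10, and the part of this in the share was not tested.

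The 300 bases at the middle of 4 distal anchors follow, as the far ends of the loops with the most tags. They are on the plus strand of GRCm38, and capitals mark CG dinucleotides and GATC, the site that MboI cuts in the HiChIP protocol.
Pax2 distal anchor at AC125101.1, chr19:44248387-44248686: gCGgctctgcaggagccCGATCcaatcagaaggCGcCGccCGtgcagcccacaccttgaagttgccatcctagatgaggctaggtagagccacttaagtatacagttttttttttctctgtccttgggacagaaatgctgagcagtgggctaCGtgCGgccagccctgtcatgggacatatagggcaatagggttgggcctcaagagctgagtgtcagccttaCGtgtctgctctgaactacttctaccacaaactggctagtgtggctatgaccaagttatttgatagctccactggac
Pax3 distal anchor in the intergenic region, chr1:78009125-78009424: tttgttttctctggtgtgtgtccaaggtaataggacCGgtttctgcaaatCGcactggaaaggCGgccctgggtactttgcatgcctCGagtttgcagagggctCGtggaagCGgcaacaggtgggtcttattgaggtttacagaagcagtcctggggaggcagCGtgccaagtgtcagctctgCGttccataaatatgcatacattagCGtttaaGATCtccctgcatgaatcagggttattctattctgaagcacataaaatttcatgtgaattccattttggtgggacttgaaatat
Pax6 distal anchor at Paupar, chr2:105661116-105661415: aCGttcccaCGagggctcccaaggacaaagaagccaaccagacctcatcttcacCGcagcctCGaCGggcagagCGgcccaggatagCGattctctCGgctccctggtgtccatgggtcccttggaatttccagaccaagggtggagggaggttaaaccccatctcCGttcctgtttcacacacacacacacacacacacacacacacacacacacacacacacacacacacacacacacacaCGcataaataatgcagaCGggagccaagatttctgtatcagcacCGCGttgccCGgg
Pax6 distal anchor in the Dcdc5 intron, chr2:106083923-106084222: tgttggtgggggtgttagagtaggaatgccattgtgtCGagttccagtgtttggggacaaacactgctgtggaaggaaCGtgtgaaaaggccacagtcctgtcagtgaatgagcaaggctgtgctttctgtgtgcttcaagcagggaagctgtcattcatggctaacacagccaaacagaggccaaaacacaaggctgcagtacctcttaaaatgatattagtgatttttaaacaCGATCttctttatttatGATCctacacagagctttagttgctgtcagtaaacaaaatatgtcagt
The Paupar stretch held 14 CG dinucleotides and no GATC, and the Dcdc5 intron held 3 CG dinucleotides and 2 GATC. Over whole anchors, the 7 Pax promoter anchors had a median observed over expected CpG ratio of 0.637, the 14 distal anchors 0.323 and all 16864 anchors 0.502. The number of MboI sites was similar, with medians of 4, 5.5 and 5, and no Pax anchor lacked one.

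The 10 promoters that RefSeq gives for 7 of the members (300 bases, from 250 before to 50 after the TSS) had a median CpG ratio of 0.689 and GC content of 58.8%, against 0.384 and 52.7% over 32851 promoters. Of the 5 promoters of looped members, those of Pax2 had ratios of 0.410, 0.789 and 0.812 and those of Pax6 had 0.698 and 0.998. Only the Pax2 promoters with 0.789 and 0.812 lay in an anchor of a loop, and looped Pax3 had no promoter entry. The 5 promoters of members with no loop had 0.288 for Pax8, 0.581 for Pax7, 0.639 for Pax1, 0.679 for Pax9 and 0.882 for Pax5, so the groups overlapped through Pax5 and the first Pax2 promoter. The paired-domain core GTCACGC, searched on both strands, was in 1 of the 10 Pax promoters, that of Pax1, and in 2.09% of all promoters. It was in the middle 300 bases of 1 of 14 Pax distal anchors, at Sfxn3, and of 2.43% of all anchors. The variant TTCACGC was in none of these Pax windows, and in 1.26% of promoters and 1.62% of anchors. The homeodomain dimer motif, a pair of TAAT cores in opposite orientation with 3 bases between, was also in none, and in 0.487% of promoters and 0.249% of anchors.

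Every anchor in the list belongs to a loop, so for the 5 members with no loop the distance to the nearest anchor was measured. The nearest anchor lay 44.3 kb from Pax5, 165.7 kb from Pax1, 170.1 kb from Pax7, 170.9 kb from Pax9 and 441.9 kb from Pax8. Among the 11705 protein-coding genes with no loop the median was 91.8 kb, with quartiles of 26.3 and 349.7 kb. Against these genes Pax5 stood at percentile 35.5, Pax1 at 62.0, Pax7 at 62.5, Pax9 at 62.6 and Pax8 at 78.4. Pax8 alone was beyond the upper quartile. Pax4 had an anchor 20.3 kb away. Whether H3K27ac or contacts were missing at these promoters was not tested.

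**Figure D3:**
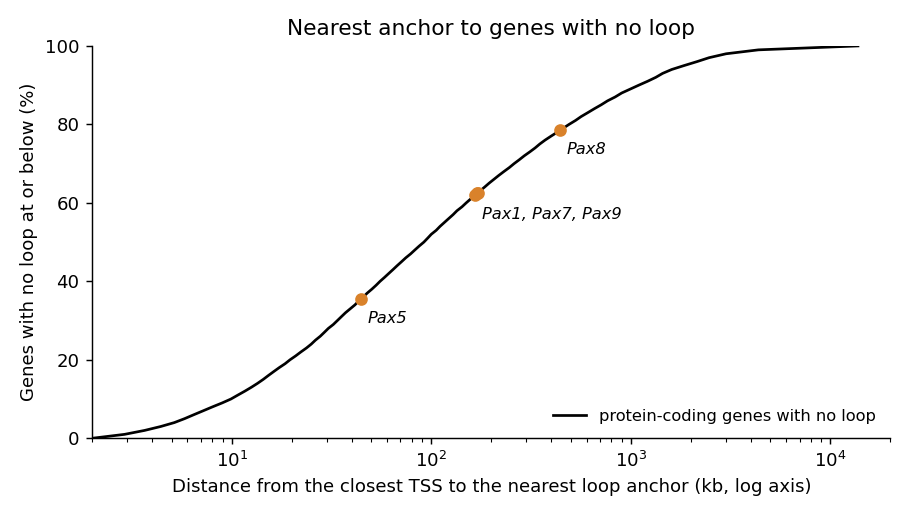
Distance in kb from a gene's closest TSS to the nearest loop anchor, on a log axis, with the share of the 11705 protein-coding genes with no loop at or below it (line). Orange points are the 5 Pax genes with no loop. Pax5 lies below the middle of the curve, Pax1, Pax7 and Pax9 lie close together near 170 kb, and Pax8 is the farthest.

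In the Pax1 and Pax9 subgroup, the nearest anchor to Pax1 was at Nkx2-2, a homeobox gene of the ventral neural tube that is also its nearest protein-coding neighbour. The Nkx2-2 anchor had 6 loops with 21 tags, and Nkx2-2 had a loop score of 27. Foxa2, 649.6 kb away on the other side of Pax1, had no loop. None of the 12 loops within 500 kb of Pax1 touched its promoter, while all 4 other protein-coding genes within that distance had a loop. Around Pax9 the list was almost empty: 1 loop with 1 tag, from an intron of Sfta3-ps, was the whole content of the 500 kb on either side. None of the 4 protein-coding genes in that stretch had a loop, Nkx2-9 among them. The flanking Prps1l3, farther off, had a loop score of 5.

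In the Pax2, Pax5 and Pax8 subgroup, Pax5 had loops inside the gene that did not reach its promoter. An anchor inside a Pax5 intron, chr4:44573621-44578142, lay 67.6 kb from the closest Pax5 TSS and had 2 loops of 1 tag each, 1 of them to Slc25a51 over 833.2 kb. The nearest anchor belonged to Zcchc7, the flanking RNA-processing gene, which had 3 loops with 3 tags. Of the 9 other protein-coding genes within 500 kb of Pax5, 8 had a loop, and the flanking Melk did not. Around Pax8, 5 of 15 had a loop and the flanking Psd4 and Cacna1b had none. Its nearest anchor was at Ehmt1, a histone methyltransferase gene, with 2 loops. The third member of the subgroup, Pax2, lay in the densest stretch of all, with 94 loops and 162 tags within 500 kb.

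Pax7 had 11 loops of 1 tag each within 500 kb, and its flanking genes Tas1r2 and Klhdc7a had none. Of the 9 other protein-coding genes within 500 kb of Pax7, 6 had a loop. The nearest anchor to Pax7 was intergenic and had 1 loop. Pax3, the other member of its subgroup, had 5 loops with 6 tags within 500 kb, but 2 of these were its own. The looped member of this subgroup therefore lay among fewer loops than the member with none. For Pax6 the same stretch held 10 loops with 14 tags, and 1 of 5 protein-coding neighbours had a loop.

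The share of the surrounding loops that fell in each promoter window differed between the 3 looped genes. Of the loops within 500 kb, 70.0% touched the Pax6 promoter, 40.0% the Pax3 promoter and 6.38% the Pax2 promoter, against a median of 11.4% over 10050 protein-coding genes with a loop. This put Pax6 at percentile 96.8, Pax3 at 89.3 and Pax2 at 28.4. In tags the shares were 78.6, 50.0 and 4.32%. The median gene had 35 loops within 500 kb, so the high shares of Pax6 and Pax3 rest on 10 and 5 loops. Pax6 has 24 annotated TSSs and Pax2 and Pax3 have 3 each, so more of the Pax6 locus counted as promoter. The 17 further loops inside Pax2 or within 50 kb of it did not count for its promoter. The part of this in the shares was not tested.

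**Figure D4:**
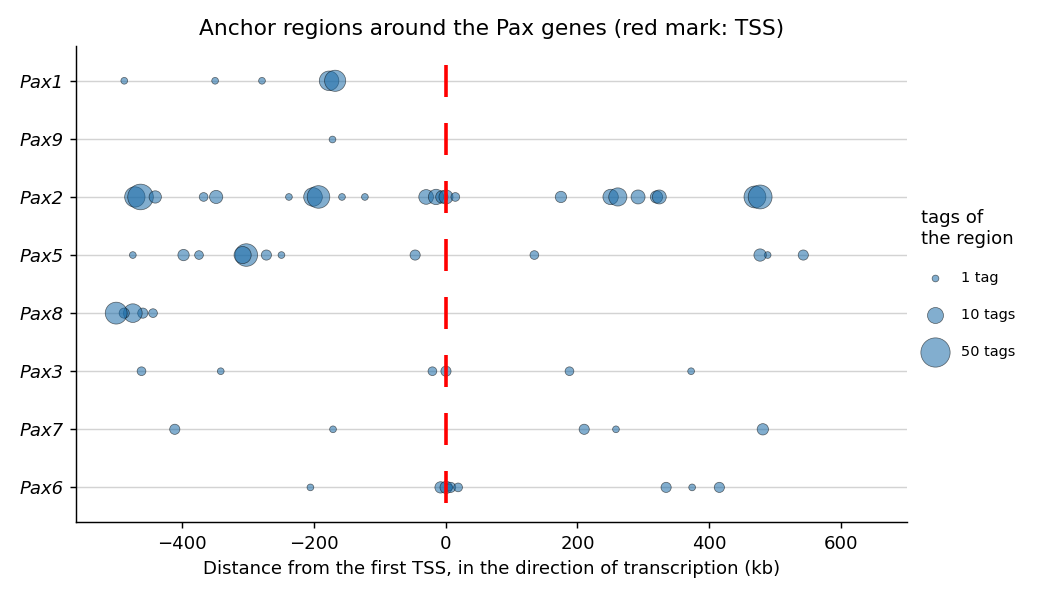
Anchor regions within 500 kb of any TSS of the 8 Pax genes, by distance in kb from the first TSS in the direction of transcription, which the red mark shows. Circle area grows with the tags of all loops of a region. Only Pax2, Pax3 and Pax6 have a circle at the mark, Pax2 lies among many regions on either side, and Pax9 has a single region.

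Genes that act with the Pax proteins were looped to different extents. Of the muscle and neural crest genes that act with Pax3 and Pax7, 7 of 18 had a loop (38.9%, interval 20.3 to 61.4%, median 0), against the 46.2% of protein-coding genes. The largest scores were those of Lbx1 with 29, Msx1 with 18 and Snai2 with 8, and the myogenic factor genes Myf5, Myf6, Myod1 and Myog had no loop.

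The list for Pax2, Pax5 and Pax8 had a loop in 10 of 22 genes (45.5%, interval 26.9 to 65.3%, median 0), led by Gbx2 with 8 tags and by Sall1 and Hoxa11 with 6 each. The list for Pax6, of eye and neural tube genes, had a loop in 12 of 18 (66.7%, interval 43.7 to 83.7%, median 2), with 39 tags at Sox2, 27 at Nkx2-2 and 19 at Irx3. The sclerotome and pharyngeal pouch genes that act with Pax1 and Pax9 had a loop in 12 of 18 (66.7%, interval 43.7 to 83.7%, median 6.5). The intervals of these 4 lists all included the 46.2% of protein-coding genes. Ptch1, the Hedgehog receptor, had 118 tags there. Uncx, a sclerotome homeobox gene, had 40 and Twist1, a mesenchymal transcription factor gene, had 22. All 10 coregulators of Pax proteins, among them the histone methyltransferase genes Kmt2d with 44 tags and Kmt2c with 23 and the chaperone gene Daxx with 22, had a loop, with a median of 9.5 tags. The Pax genes themselves had a median of 0, as did all protein-coding genes. These comparisons are descriptions only, since the protein-coding genes were not matched to any list and the lists were chosen with earlier results known.

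The second part of the merged loops held 18.2% of the tags of the Pax1 and Pax9 list, 23.8% of those of the Pax3 and Pax7 list and 32.8% of those of the coregulators. It held 48.6% of the tags of the Pax6 list and 51.4% of those of the Pax2, Pax5 and Pax8 list. The 76.2% of the Pax genes was above the share of each of the 5 lists, though it rests on 21 tags, 11 of them from Pax6.

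**Figure D5:**
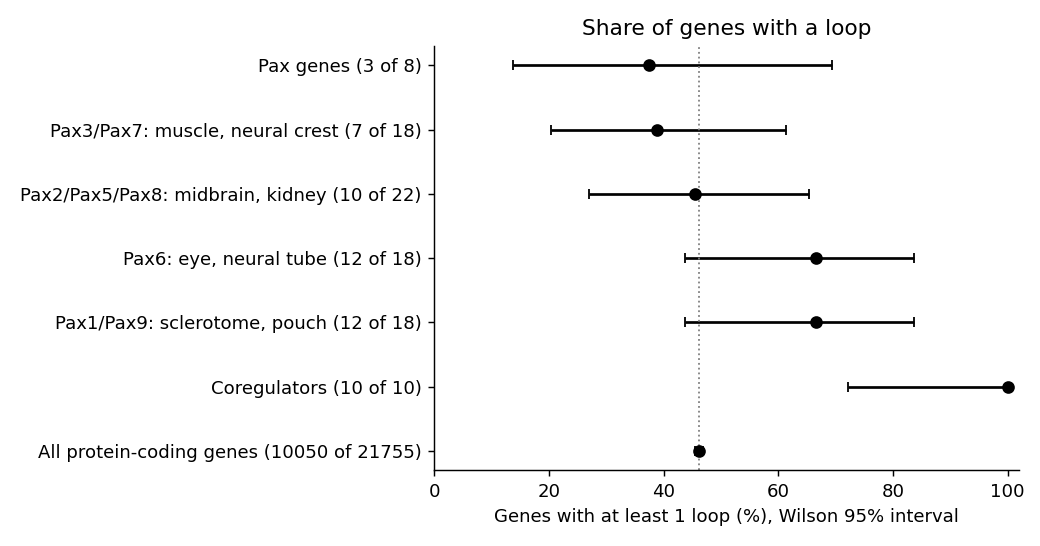
Share of genes with at least 1 loop, in percent with Wilson 95% intervals, for the Pax genes, the 5 lists of genes that act with them and all 21755 protein-coding genes, whose 46.2% is the dotted line. The numbers beside the names are looped genes of genes in the list. The interval of the coregulators lies wholly above the dotted line, and the intervals of the Pax genes and of the other 4 lists cross it. No test was made, and the protein-coding genes were not matched to any list.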

How the data were processed

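H3K27ac HiChIP was measured in 2 hSS2 tumors. The authors digested chromatin with MboI, mapped read pairs to mm10 with HiC-Pro and called loops with hichipper, where Mango statistics assign the FDR. The deposited list, merged over both tumors, holds for each loop the count of its paired-end tags, not normalized, and the FDR, a p-value adjusted by the authors' caller. The study names a limit of 0.05 in its methods and 0.01 in a legend, and the list holds values up to 0.05. How the counts were merged is not given in the sources used here. The depth was 41574 tags over 24244 loops, 115 of which repeat listed anchors and were kept. The ChIP-seq samples were not used here.

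A loop belonged to a gene when an anchor overlapped 2 kb on either side of a GENCODE vM21 TSS (GRCm38). Span is the distance between anchor midpoints, and overlapping anchors were merged into 13665 regions for counts within 500 kb. The named genes were the members, Pax4, genes within 2 kb of a distal anchor, the nearest protein-coding gene on either side and the 3 largest loop scores of each list. Partners of other anchors near Pax2, Pax3 and Pax5, the loopless myogenic genes and the genes at the anchors nearest to loopless members were named after their values were seen. Members and lists were chosen with earlier results of these data known. A further planned list and 1 gene of the Pax1 and Pax9 list are not reported here. Alternatives were promoter windows of 1 and 5 kb, other TSS sets, FDR limits of 0.01 and 0.001, minimums of 2 and 4 tags, anchors resized to 4 kb, spans up to 1 Mb and each part of the list alone. The code of the loop assignment was checked on 400 simulated loops planted inside the promoter window, and all were recovered. A direct count gave the same loops for all 50 genes checked. This says nothing on whether the listed loops are real. Tools were pysam 0.24.0, scipy 1.17.1, matplotlib 3.10.9, pandas 2.3.3, numpy 2.4.6 and Python 3.11.15.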

Additional observations from a re-analysis of the deposited data

How the results depend on the processing

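No paired analysis was possible because the merged list carries no values per tumor. Pax1, Pax5, Pax7, Pax8 and Pax9 had no loop in any setting tried. The number of looped Pax genes fell from 3 to 1 with an FDR under 0.001, with at least 4 tags or with the first part of the list alone. The loops numbered 1, with 2 tags, at an FDR under 0.001, and 3, with 6 tags, at an FDR under 0.01. They numbered 4 with at least 2 tags (10 tags), 1 with at least 4 tags (4 tags) and 4 in the first part (5 tags). The share of single-tag loops was 0% under both FDR limits and both tag minimums, the latter by construction. The median span was 297.4 kb with at least 2 tags and 8.47 kb with at least 4. The share of distal anchors near another TSS was 0% at an FDR under 0.001, 33.3% at an FDR under 0.01, 100% with at least 4 tags and 35.7% with protein-coding TSSs alone. The cause was not tested where the construction does not give it. Across settings the loop score ranged from 0 to 12 tags for Pax2, 0 to 3 for Pax3 and 0 to 11 for Pax6. With most loops at a single tag, depth limits any statement on a single contact.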
